A study of Homo sapiens with 6 samples.

Results

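The genes described here are TESC, SLC24A2, ART3, PTH2R, TNFSF15, LTF, ARHGAP24, PWWP3B and LYRM7, 9 of the 19775 genes with a probe set of their own on the array. They were listed because their signal was lower with both SOX9 siRNAs and in both replicates, so their values against control chose them and are given as a description, with no test. All probe sets annotated with exactly one of these symbols were taken, 18 in all. The cells were VCaP, an established human prostate cancer line with the TMPRSS2/ERG fusion, grown in DMEM with 10% FBS. Each group held 2 arrays of total RNA collected 72 h after transfection: SOX9i-A (siRNA A), SOX9i-B (siRNA B) and non-target control siRNA (control). The fusion is shared by all 6 arrays, and 1 cell line was used. The design text calls the 2 arrays of a group biological duplicates. P-values measure only the spread between such arrays, which the fit takes partly or wholly from other genes of like signal. In total RNA from a culture, fewer cells that express a gene and less of its RNA per cell cannot be told apart.

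SOX9 is a transcription factor with an HMG box, a domain that binds the minor groove of DNA at short A/T-rich sites and bends it. It directs cartilage and testis development, and in the prostate it is expressed in basal and progenitor cells and in some tumours. The 9 genes belong to different pathways. TESC and SLC24A2 handle or sense calcium, PTH2R, TNFSF15, ART3 and LTF act at the cell surface or outside the cell, and ARHGAP24, PWWP3B and LYRM7 act inside it, on small GTPases, chromatin and mitochondria.

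RefSeq promoter windows, from 250 bases before a transcription start to 50 after it, were found for 7 of the 9 genes, 11 windows in all, on GRCh38.p14. TESC and PWWP3B were not matched. The windows were searched on both strands for the core SOX site ACAAT, which reads ATTGT on the other strand. It was found in 2 of 11 windows, 1 of ART3 and 1 of ARHGAP24. Of the 35116 windows of all genes 27.4% hold it, and of the 14799 windows of genes tested here 18.2%. The 250 bases upstream of these starts are shown because they hold the core, with the LYRM7 window beside them as one that does not. Capitals mark the core.
ART3, chr4:76053866-76054115, plus strand: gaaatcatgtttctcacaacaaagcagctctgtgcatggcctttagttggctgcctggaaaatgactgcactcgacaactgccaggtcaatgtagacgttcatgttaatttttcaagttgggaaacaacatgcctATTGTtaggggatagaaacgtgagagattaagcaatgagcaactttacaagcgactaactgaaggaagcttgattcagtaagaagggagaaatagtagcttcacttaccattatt
ARHGAP24, chr4:85474900-85475149, plus strand: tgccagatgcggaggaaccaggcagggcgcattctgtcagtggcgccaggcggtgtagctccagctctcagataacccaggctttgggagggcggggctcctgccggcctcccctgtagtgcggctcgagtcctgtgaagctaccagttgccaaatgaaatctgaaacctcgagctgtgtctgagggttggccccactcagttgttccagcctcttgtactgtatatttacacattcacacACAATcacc
LYRM7, chr5:131170694-131170943, plus strand: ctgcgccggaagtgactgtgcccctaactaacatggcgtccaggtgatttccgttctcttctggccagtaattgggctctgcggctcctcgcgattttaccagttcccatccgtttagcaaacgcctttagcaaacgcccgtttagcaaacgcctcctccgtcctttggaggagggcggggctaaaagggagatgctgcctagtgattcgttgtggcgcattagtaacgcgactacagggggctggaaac
The ART3 match is also the longer form AACAAT (6.06% of windows of tested genes), and the full AACAATGG (0.568%) is in none of the 11 windows. ART3 has another window, at its outer start, without the core, and so has ARHGAP24 at its inner start. The TCF/LEF core CTTTGA was found in 1 of 11 windows, that of LYRM7, against 9.09% of windows of tested genes. The ETS core CCGGAA was found in 2 windows, those of PTH2R and LYRM7, against 26.1%. The androgen receptor motif AGAACA, one arm of the palindromic site, was found in 2 windows of LTF, against 9.80%. A match describes letters in a window and says nothing of binding.

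Signals are MAS5 values on a linear scale, 1 per probe set. SOX9 itself, the gene that the siRNAs target, had signals of 1469 and 1126 in control replicates 1 and 2, 1108 and 673 under siRNA A and 609 and 334 under siRNA B. The other SOX9 probe set read 1558 and 1270, 861 and 586, and 570 and 293 in the same order. Both probe sets therefore ran in the order siRNA A replicate 1, siRNA A replicate 2, siRNA B replicate 1, siRNA B replicate 2 from high to low, with all 4 below both control arrays. The gap was narrow for the first probe set, 1108 against 1126. As a share of the control mean, SOX9 stood at 68.6% under siRNA A and 36.3% under siRNA B in the first probe set and at 51.2% and 30.5% in the second.

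**Figure D1:**
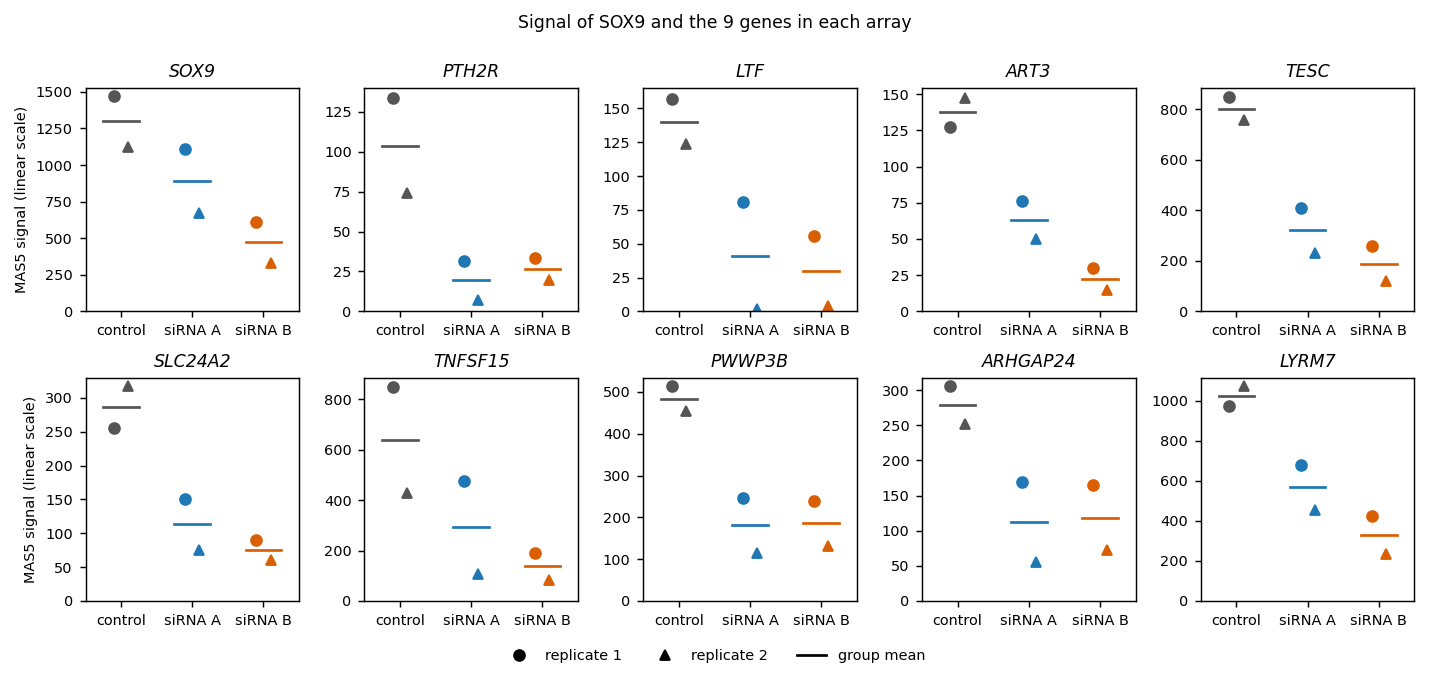
MAS5 signal (linear scale, from 0) of SOX9 and the 9 genes in each of the 6 arrays; circles are replicate 1, triangles replicate 2 and bars group means of 2 arrays. In all panels but that of TNFSF15 the 4 siRNA arrays lie below both control arrays; in all panels replicate 2 lies below replicate 1 within each siRNA.

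TESC encodes tescalcin, an EF-hand calcium-binding protein that binds the sodium/proton exchanger NHE1. Its signal was 846.5 and 755.5 with control, 410 and 229 under siRNA A and 258 and 120 under siRNA B, replicate 1 first. The highest siRNA array, 410, was far under the lowest control array, 755.5, and siRNA B replicate 2 was the lowest of all. The group values were 801 ± 64.3 with control, 320 ± 128 under siRNA A and 189 ± 97.7 under siRNA B (SD, n = 2 each), so the signal left was 39.9% and 23.6% of control. A second TESC probe set stayed between 2.70 and 13.1 in all 6 arrays, under the filter level of 22.0 that was set for dim probe sets, and shows no order.

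SLC24A2 encodes NCKX2, a plasma membrane exchanger that moves calcium and potassium out of cells in exchange for sodium and is best known from neurons and cone photoreceptors. Its signal was 255 and 317 with control, 151 and 75.5 under siRNA A and 89.5 and 59.8 under siRNA B. The groups did not overlap, and the siRNA arrays had the order of those of TESC: siRNA A replicate 1, siRNA B replicate 1, siRNA A replicate 2, siRNA B replicate 2. Group values were 286 ± 43.6, 113 ± 53.1 and 74.65 ± 21.001 (SD, n = 2 each), or 39.5% of control under siRNA A and 26.1% under siRNA B. The second SLC24A2 probe set was dim, from 8.90 to 19.8, with all 4 siRNA arrays (highest 12.6) below both controls (lowest 15.8).

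ART3 belongs to the family of surface-anchored ADP-ribosyltransferases and is known from testis and muscle. The signal was 128 and 148 with control, 76.1 and 50.2 under siRNA A and 29.8 and 14.4 under siRNA B. Here both siRNA B arrays were below both siRNA A arrays, which were below both controls, the same order of arrays as SOX9. Group values were 138 ± 14.2, 63.2 ± 18.3 and 22.1 ± 10.9 (SD, n = 2 each), or 45.9% of control under siRNA A and 16.1% under siRNA B. The last value, 14.4, is under the filter level, so the size of the difference under siRNA B is uncertain.

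PTH2R, a receptor coupled to cAMP whose ligand is the peptide TIP39, had a signal of 134 and 74.2 with control, 31.4 and 7.40 under siRNA A and 33.6 and 19.4 under siRNA B. All 4 siRNA arrays were low, at most 33.6 against at least 74.2, and siRNA A replicate 2 was the lowest. Group values were 104 ± 42.1, 19.4 ± 17.0 and 26.5 ± 10.0 (SD, n = 2 each). Its share of control was 18.7% under siRNA A and 25.5% under siRNA B, the smallest of the 9 genes over the 4 arrays together, with 2 of the 4 siRNA arrays under the filter level.

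TNFSF15 encodes TL1A, a ligand of the tumour necrosis factor family that binds the death domain receptor TNFRSF25. Its signal was 847 and 427 with control, 477 and 109 under siRNA A and 191 and 83.6 under siRNA B. The groups overlapped, since siRNA A replicate 1 (477) was above control replicate 2 (427). Each siRNA array was still below the control array of its own replicate number. Group values were 637 ± 297, 293 ± 260 and 137 ± 75.7 (SD, n = 2 each), or 45.9% and 21.5% of control. The other TNFSF15 probe set read 143 and 73.6, 86.2 and 33.0, and 56.7 and 22.8, with the same overlap and the same order of arrays.

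LTF encodes lactoferrin, an iron-binding protein of exocrine secretions and neutrophil granules. The signal was 157 and 123 with control, 80.7 and 1.60 under siRNA A and 56.0 and 4.10 under siRNA B. It was thus moderately lower in the replicate 1 arrays and near 0 in the replicate 2 arrays of both siRNAs. Group values were 140 ± 24.0, 41.2 ± 55.9 and 30.1 ± 36.7 (SD, n = 2 each), with SDs larger than the means for both siRNAs. The 8 other neutrophil granule markers examined (MPO, ELANE, AZU1, CAMP, S100A8, S100A9, S100A12 and PRTN3) all had a mean below the filter level, with a highest single signal of 19.3 and sums of 61.0 to 84.5 in control, 51.1 to 65.1 under siRNA A and 48.5 to 60.6 under siRNA B, and 0 of them were tested.

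ARHGAP24 encodes FilGAP, a GTPase-activating protein that turns off Rac and binds filamin. On its brightest probe set the signal was 305 and 252 with control, 169 and 54.8 under siRNA A and 164 and 72.4 under siRNA B. The siRNAs had nearly the same values in each replicate, and replicate 2 was much the lower with both. Group values were 278 ± 37.8, 112 ± 80.5 and 118 ± 65.1 (SD, n = 2 each), or 40.1% and 42.5% of control. The 3 other probe sets did not all follow. One had signals of 79.1 and 44.5 with control, 46.7 and 12.3 under siRNA A and 50 and 20.9 under siRNA B, and its groups overlapped. Another was at 37.4 and 34.3, 21.5 and 16.8, and 30.1 and 36.2, where siRNA B kept 92.5% of the control mean, and the last was below the filter level. Which transcripts of the gene each probe set reads is not given in the sources used here.

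PWWP3B encodes a protein with a PWWP domain, a fold that binds methylated histones and DNA. The signal was 514 and 454 with control, 247 and 115 under siRNA A and 239.5 and 132 under siRNA B. Like ARHGAP24 it had nearly equal values with both siRNAs and lower ones in replicate 2, with no overlap with control. Group values were 484 ± 42.7, 181 ± 93.5 and 186 ± 75.9 (SD, n = 2 each), or 37.4% and 38.4% of control.

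LYRM7 encodes a mitochondrial chaperone that holds the Rieske iron-sulfur protein UQCRFS1 before it enters respiratory complex III. On its brightest probe set the signal was 976 and 1074 with control, 679 and 455 under siRNA A and 426.5 and 235 under siRNA B. The order of arrays was that of SOX9, with both siRNA B arrays below both siRNA A arrays and all 4 below control. Group values were 1025 ± 68.7, 567 ± 159 and 331 ± 135 (SD, n = 2 each), or 55.3% and 32.3% of control. All 4 LYRM7 probe sets had this order, and siRNA B left 28.7%, 32.1% and 24.8% of control in the other 3. Those 3 are of the type whose probes can also hybridise to other transcripts.

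**Figure D2:**
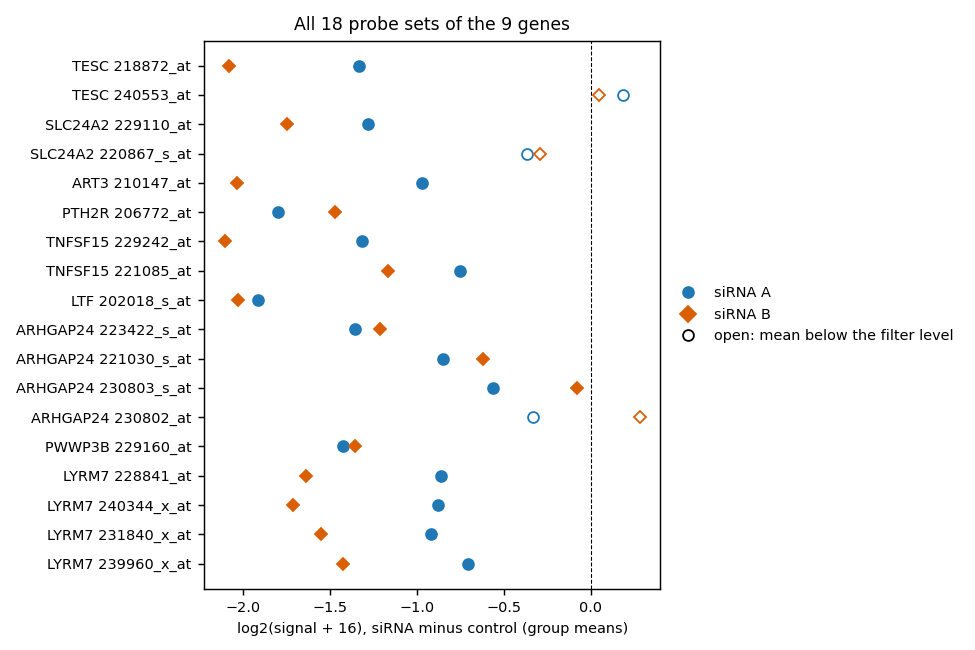
Difference in log2(signal + 16) from control for siRNA A (circles) and siRNA B (diamonds), as group means of 2 arrays, for the 18 probe sets of the 9 genes; open symbols mark the 3 probe sets with a mean below the filter level. The 4 LYRM7 probe sets lie close together, while those of ARHGAP24 run from -1.36 to -0.56 for siRNA A and from -1.21 to -0.08 for siRNA B among the 3 above the filter level.

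Ordered by the share of control signal left over the 4 siRNA arrays, the genes were PTH2R (22.1%), LTF (25.4%), ART3 (30.99%), TESC (31.7%), SLC24A2 (32.8%), TNFSF15 (33.7%), PWWP3B (37.9%), ARHGAP24 (41.3%) and LYRM7 (43.8%). SOX9 was at 52.5% and 40.8% in its 2 probe sets, so all 9 kept a smaller share than the first SOX9 probe set and 7 a smaller share than the second. Gaps between neighbours in this order ran from 0.744 to 5.62 percentage points. The SD of the share over the 4 siRNA arrays ran from 11.6 (PTH2R) to 28.3 (TNFSF15). That SD includes the siRNA and replicate differences that the genes share. Neighbours were not compared array by array, so whether they differ was not tested.

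**Figure D3:**
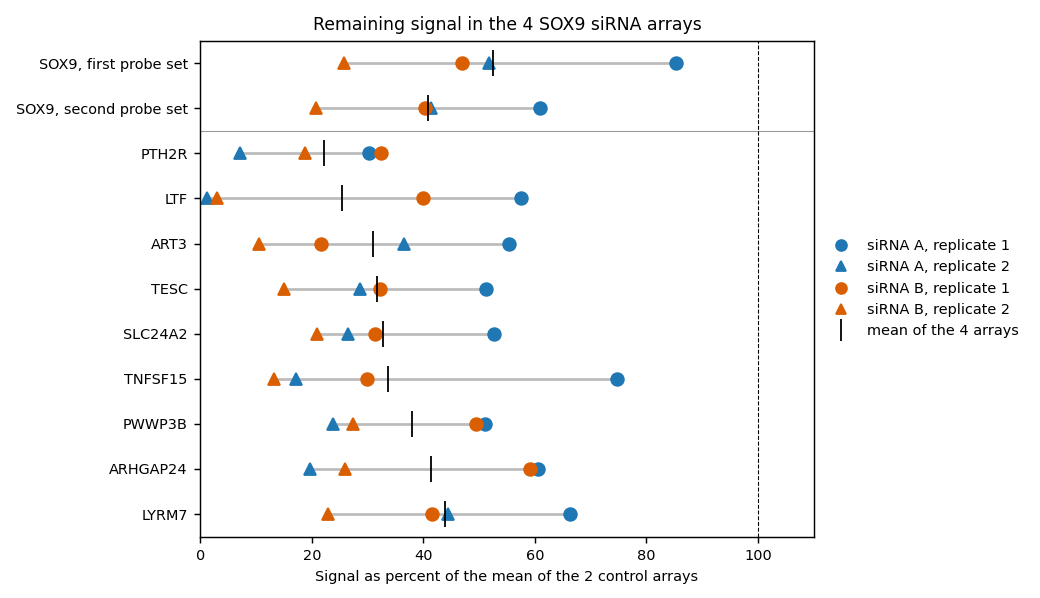
Signal of each SOX9 siRNA array as a percent of the mean of the 2 control arrays, for both SOX9 probe sets and the 9 genes, ordered by the mean of the 4 arrays (black tick). The siRNA A replicate 1 array, the one with most SOX9 signal left (85.4% in the first probe set, 60.9% in the second), is the highest of the 4 for 8 of the 9 genes, PTH2R excepted (26.9% of all genes tested). The array with least SOX9 signal, siRNA B replicate 2, is the lowest for 5 genes (14.2% of all genes tested). For the other 4 the lowest is siRNA A replicate 2 (29.5%).

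On the scale of log2(signal + 16), which understates the change of dim genes, the difference of both siRNAs from control ran from -1.97 (LTF) to -1.25 (LYRM7), with a median of -1.52 against -0.04 over the 12431 genes tested. These values were what the genes were chosen on. By this difference the 9 rank between places 5 and 42 from the lowest of all genes tested. In 8 of 9 all 4 siRNA arrays were below both control arrays, which holds for 11.8% of all genes tested. In 9 of 9 each siRNA array was below the control array of the same replicate number, against 16.7%. With limma 0.0402% of genes were called for both siRNAs against control at an adjusted p below 0.05, in a fit that leaves the replicate numbers out. The median was -0.95 without replicate 2 of both SOX9 siRNAs and -1.89 without their replicate 1. Without those replicate 2 arrays the difference ran from -1.26 (PTH2R and TESC) to -0.68 (ARHGAP24), and LTF went from -1.97 to -0.90.

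The difference between the siRNAs was fitted over all genes. The listing did not use this difference itself, but it used the values under both siRNAs, which limits how far they can differ, so the p-values of the 9 genes are not independent of it. ART3 had the largest, 1.07 higher under siRNA A than under siRNA B (SE 0.30, 95% interval 0.42 to 1.71, limma adjusted p = 0.240), and it did not pass. With the replicate number as a block in the fit its limma adjusted p was 0.0132. The adjusted p of ART3 ran from 0.0132 to 0.745 over its 21 alternatives. TNFSF15 was higher under siRNA A by 0.79 (interval -0.29 to 1.87), LYRM7 by 0.78 (0.09 to 1.47), TESC by 0.75 (-0.01 to 1.502) and SLC24A2 by 0.47 (-0.21 to 1.14). The other 4 lay near 0, at 0.12 for LTF (-1.18 to 1.42), -0.07 for PWWP3B (-0.81 to 0.68), -0.14 for ARHGAP24 (-0.9997 to 0.71) and -0.33 for PTH2R (-1.12 to 0.46). SOX9, on the same scale, was 0.91 higher under siRNA A (limma adjusted p = 0.428; 0.0411 with the block). In limma 0 of the 9 genes were called against 0.0965% of all genes, 2 had an unadjusted p below 0.05 against 8.23% of all genes, and 1 was called with the block against 2.90%. The width of the intervals means that a p over the threshold does not show that the siRNAs act alike on a gene.

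**Figure D4:**
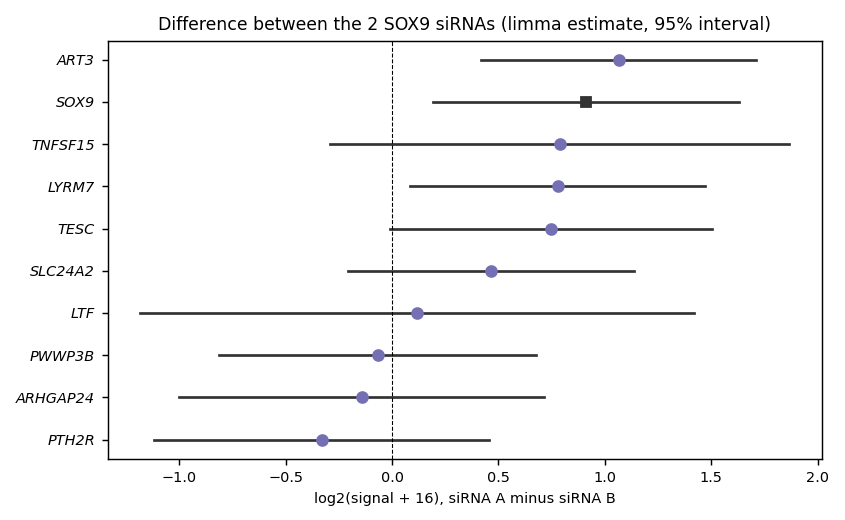
Difference in log2(signal + 16) between siRNA A and siRNA B (points; limma estimate from 2 arrays per group) with its 95% interval for the 9 genes and SOX9 (square). The intervals of ART3, SOX9 and LYRM7 lie above 0 before adjustment over all genes, and none passed after it in this fit without the replicate block. With the block ART3 and SOX9 passed (limma adjusted p = 0.0132 and 0.0411).

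The replicate 2 arrays of the siRNAs stood lower than the replicate 1 arrays in all 9 genes, which holds for 22.0% of all genes tested. Averaged over both siRNAs, replicate 2 minus replicate 1 ran from -2.15 (LTF) and -1.52 (TNFSF15) through -1.21 (ARHGAP24), -0.90 (TESC), -0.90 (PWWP3B), -0.75 (PTH2R), -0.69 (LYRM7) and -0.67 (SLC24A2) to -0.53 (ART3), with a median of -0.90 against 0.12 over all genes. SOX9 was at -0.77. In the control arrays the same difference had a median of -0.17 over the 9 genes and 0.14 over all genes, and it was above 0 for SLC24A2, ART3 and LYRM7. The listing used both replicates, so these differences are a description. The replicate difference was larger than the difference between the siRNAs in 7 of the 9 genes, against 57.8% of all genes tested. ART3 and LYRM7 were the exceptions. With replicate 2 below replicate 1 under both siRNAs, this is the same as having the array order of SOX9, which 4.84% of all genes have. The lowest array was siRNA B replicate 2 for TESC, SLC24A2, ART3, TNFSF15 and LYRM7 (14.2% of all genes have their lowest siRNA array there) and siRNA A replicate 2 for PTH2R, LTF, ARHGAP24 and PWWP3B (29.5%).

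**Figure D5:**
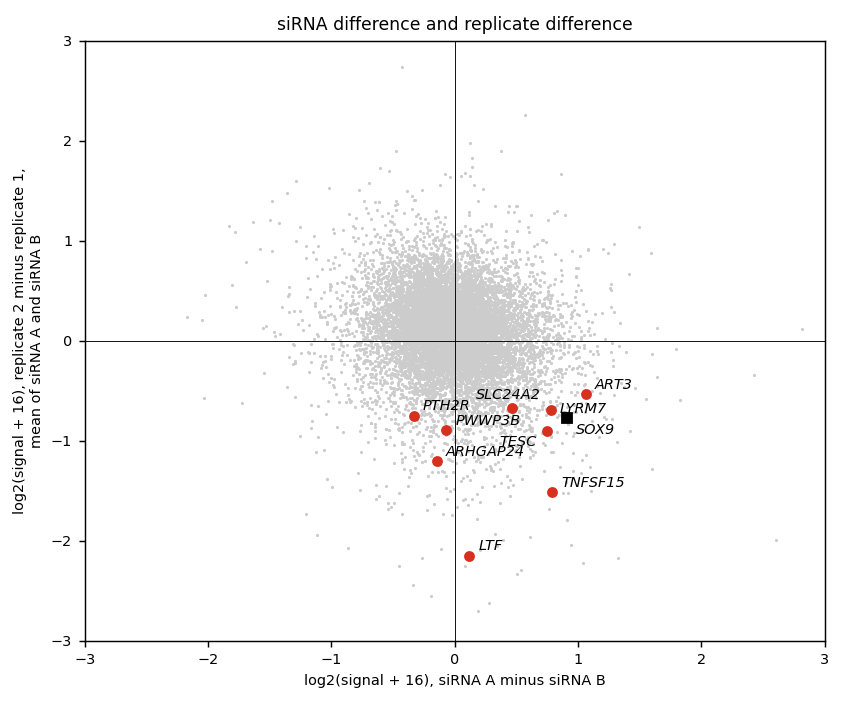
For each gene tested (grey), the 9 genes (red) and SOX9 (black square), the siRNA A minus siRNA B difference (x) against the mean replicate 2 minus replicate 1 difference of the siRNA arrays (y), both in log2(signal + 16). All 9 genes lie below 0 on the y axis, from -2.15 (LTF) to -0.53 (ART3), and ART3, LYRM7, TESC and TNFSF15 lie with SOX9 on the right.

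The families and partners of the 9 genes were examined in a list of 94 genes, of which 64 were tested. In limma 0 were called for both siRNAs against control, 5 had an unadjusted p below 0.05 (7.76% of all genes tested have one), and 38 were below 0 (55.2% of all genes), with a median of -0.04, equal to that of all genes. These counts are near the shares over all genes. With the replicate block 2 were called, both lower, against 2.43% of all genes called lower. One was TNFSF10, the ligand TRAIL, with a signal of 1209 and 1229 with control, 1047 and 302 under siRNA A and 708 and 519 under siRNA B, a difference of -1.04 (limma adjusted p = 0.490; 0.00157 with the block). The other was PTH1R, the receptor of parathyroid hormone, with 51.1 and 48.5, 28.0 and 25.6, and 21.3 and 6.70, a difference of -0.90 (limma adjusted p = 0.459; 0.0417 with the block). In both, all 4 siRNA arrays were below both control arrays, as in 6 of the 64 tested (11.8% of all genes tested). That trait does not mark these 2 out. Their blocked p-values lean on a spread shared over genes, and TNFSF10 varied widely between its siRNA A arrays.

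None of the near relatives examined passed the test without the block. CHP1, the closest relative of TESC examined, had a difference of 0.25 (SE 0.26), and the calcineurin subunits PPP3CA and PPP3R1 had 0.54 and -0.45. The sodium/calcium exchangers SLC8A2 and SLC8B1 had -0.28 and 0.28. The related PWWP3A had -0.38 (SE 0.27) and PSIP1, another PWWP protein, -0.39. Of 13 LYR and complex III genes tested 9 were below 0, with LYRM4 at -0.30 and the complex III core gene UQCRC1 at 0.28. ARHGAP1, a GTPase-activating protein, had 0.73 and the iron transporter SLC11A2 -0.54. PARP14 had -0.28 and PARP1 -0.06. Over the genes named here limma adjusted p ran from 0.573 to 0.979. TNFRSF25, the receptor of TNFSF15, had a mean below the filter level and was not tested.

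The 9 genes lie on 7 chromosomes, with ART3 and ARHGAP24 both on 4 and SLC24A2 and TNFSF15 both on 9. In the RefSeq gene table the nearest tested gene on each side was taken for each. Of these 18 neighbours 0 were called in limma, 3 had an unadjusted p below 0.05 (against 7.76% of all genes tested), and 3 (FBXO21, LRRC2 and SERPINA7) had all siRNA arrays below both controls (against 11.8%). CXCL11, a chemokine gene that lies within the span of ART3, read 867 and 1309 with control, 1710 and 682 under siRNA A and 442 and 55.5 under siRNA B. Unlike ART3 its groups overlapped, since the siRNA A replicate 1 array was above both controls. The difference was -1.28 (limma adjusted p = 0.571, or 3.36e-05 with the block). Replicate 2 of CXCL11 was the higher in control and the lower under both siRNAs. The blocked p-value leans on a spread shared over genes, so it does not measure the spread of CXCL11 itself. CXCL10 also lies within ART3 and had a difference of -1.76 (limma adjusted p = 0.594), a gene singled out after its value was seen. NUP54, on the other side of ART3, had -0.004 (SE 0.22). The genes beside LYRM7, HINT1 and CDC42SE2, had -0.03 and 0.30, those beside TESC, FBXW8 and FBXO21, 0.22 and -0.43, and those beside PTH2R, PIKFYVE and MAP2, 0.08 and 0.01. LRRC2, beside LTF, had -0.84 and SERPINA7, beside PWWP3B, -0.71, both dim.

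The genes whose profile over the 6 arrays was most like the mean of the 9 were LOC285191 (Pearson r = 0.997), EFNA1 (0.995), IL17RB (0.993), MPST (0.991) and TESMIN (0.991). EFNA1, a membrane-bound ligand of Eph receptors, read 917 and 820 with control, 652 and 428 under siRNA A and 531 and 425 under siRNA B. These arrays share the group differences that chose the 9 genes, so the likeness is a description over 6 points.

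Across the series, 2%-trimmed mean signals ran from 144 to 190 and medians from 21.2 to 26.3. The 10 luminal prostate markers with a probe set of their own were KLK3, KLK2, TMPRSS2, ERG, KRT8, KRT18, HOXB13, FOLH1, SLC45A3 and AMACR. All were above the filter level, with sums of 25715 to 29948 in the 6 arrays. KLK2 contributed 15122 to 17513 of these sums, which hide markers that moved apart. KLK3 read 1998 and 1295 in control, 2064 and 825 under siRNA A and 1474 and 833 under siRNA B. SLC45A3 read 317 and 338, 531 and 1466, and 443 and 752 in the same order. Above the filter level were 1 of 7 leukocyte, 1 of 6 endothelial, 3 of 8 fibroblast and stromal and 5 of 8 neuronal markers. Sums of the fibroblast and stromal markers were 460 and 612 with control, 494 and 791 under siRNA A and 1039 and 2330 under siRNA B, and those of the neuronal markers 1412 to 1953, 1604 to 1631 and 1802 to 2683. LUM, a matrix proteoglycan, contributed to the stromal sums 155 and 385 in control, 262 and 662 under siRNA A and 702 and 2019 under siRNA B, while ACTA2 went from 116 and 89.3 in control to 49.7 and 46.5 under siRNA B. NEFL, a neurofilament gene, contributed 2525 of the 2683 in the highest neuronal sum, while SNAP25 went from 208 and 175 in control to 109 and 58.6 under siRNA B. Their part in the values of the 9 genes was not tested.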

How the data were processed

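The authors deposited 1 intensity per probe set and array on a linear scale, from Affymetrix Human Genome U133 Plus 2.0 arrays. The submitters' processing notes name MAS5, with no version or scaling target. The deposited scaling was kept, and values were taken as log2(signal + 16). A gene was represented by its brightest probe set annotated with that gene alone. Genes with a mean under that of the median probe set (5.25 in log2 units, a signal of 22.0) were left out, which left 12431. Differences were fitted with limma 3.58.1 in R 4.3.3 on 3 groups and 6 arrays (3 residual degrees of freedom, eBayes with an intensity trend) and adjusted by Benjamini-Hochberg over all genes tested, called below 0.05. The fit without the block was tested on simulated data with 1 spread for all genes and no pairing. That test does not cover paired arrays or genes of unlike spread. Intervals are 95% and not adjusted. With 2 arrays a group, their number sets the precision.

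The 9 genes and the lists were chosen with earlier results of these data known. The genes named beside them were the up to 3 family genes per member with the smallest p, the nearest tested gene on each side and the 5 genes most alike in profile. The deviations of same-numbered arrays correlated at 0.63 for siRNA A with siRNA B and at 0.18 for either of them with control. All are over 0.1, so the replicate numbers, which the labels do not explain, were taken to pair the arrays. The correlations with control are weak. A block gives all 3 groups the same replicate shift, while the 9 genes had median shifts of -0.90 under the siRNAs and -0.17 in control. The main fit left this pairing out, so its calls ignore it. It called 5 genes for both siRNAs against control and 12 between the siRNAs, and the blocked fit called 440 and 361. Blocked values, with 2 residual degrees of freedom, stand where they change a call. In the blocked fit eBayes gave a gene's own residual spread little or no weight. The blocked p-values of the 9 genes between the siRNAs go with nearly the same SE for each. In the main fit their residual SD ran from 0.32 (ART3) to 1.26 (LTF). Blocked p-values thus do not measure a gene's own spread, and the blocked counts share this limit. Alternatives covered the log offset, normalization, filter, probe sets, eBayes settings, block and arrays.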

Additional observations from a re-analysis of the deposited data

Results flagged for a closer look

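Among the members, named relatives, neighbours, most alike genes and marker genes that were tested, 5 had both arrays of one siRNA above the control mean and both of the other below it. ATP2B4, a plasma membrane calcium pump listed beside SLC24A2, was 0.61 higher under siRNA A than under siRNA B on the log2 scale (limma adjusted p = 0.593), with signals of 121 and 103 under siRNA A, 84.5 and 53.6 under siRNA B and 96.0 and 105.1 in control. RNF128, the neighbour of PWWP3B, differed by -0.74 (limma adjusted p = 0.531), with signals of 32.6 and 23.9, 43.1 and 75.7, and 36.2 and 42.1. Of the marker genes, COL1A1, a fibrillar collagen gene, differed by -1.73 (limma adjusted p = 0.0574; 1.66e-07 with the block), with signals of 82.5 and 30.9, 222.9 and 195.7, and 135.4 and 115. The luminal keratin gene KRT18 differed by -0.43 (limma adjusted p = 0.706) and HOXB13 by 0.34 (limma adjusted p = 0.860). None of the 5 differences passed without the block, and of the 5 the block called COL1A1 alone.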

How the results depend on the processing

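The 9 genes kept a negative difference from control under every alternative that gave a value, 19 or 20 per gene, but sizes moved. They were listed for lower values in these same arrays, so the kept sign is a description and no support. With the median over probe sets TESC went from -1.71 to -0.80, SLC24A2 from -1.52 to -0.92 and ARHGAP24 from -1.29 to -0.53. With log2(signal + 1) and log2(signal + 64) ART3 was at -1.90 and -0.95 and PTH2R at -2.27 and -0.94. Members with all 4 siRNA arrays below both controls numbered 8 in the settings that kept all 6 arrays. Among the arrays left, the count was 9 without siRNA A replicate 1, control replicate 2 or replicate 1 of both siRNAs. Those settings leave out an array of the TNFSF15 overlap. The median difference ran from -1.73 to -1.30 with 1 array left out and was -0.95 without replicate 2 of both SOX9 siRNAs. Counts of called genes were unstable, and the cause was not tested. For both siRNAs against control, 5 in limma, the count was 9 with log2(signal + 64), 9 with the stricter filter, 1 without the eBayes trend, 0 with quantile normalization, median centring, a common trimmed mean, no filter or the siRNA arrays as 1 group (1113, 1005, 1086, 1225 and 739 genes at an unadjusted limma p below 0.05), 440 with the replicate block, 523 with block and median centring, 0 to 62 with 1 array left out, and 90 and 2646 without replicates 2 and 1 of both SOX9 siRNAs. For siRNA A against siRNA B, 12, it was 0 with quantile normalization, median centring, a common trimmed mean or no filter (1514, 1306, 1479 and 1371 unadjusted in limma), 4 with the median over probe sets, 6 without the trend, 25 with robust eBayes, 361 with the replicate block, 574 with block and median centring, 56 in a fit of the siRNA arrays alone, 0 to 289 with 1 array left out, and 153 and 1156 without replicates 2 and 1. Family genes called, 0, were 2 with the replicate block, 3 with block and median centring, and 1 and 15 without replicates 2 and 1. For siRNA A minus siRNA B, LTF (0.12) was -0.23 with log2(signal + 1) and -0.19 without replicate 1 of both siRNAs; ARHGAP24 (-0.14) and PWWP3B (-0.07) were 0.034 and 0.042 without replicate 2 of both. With 1 array left out LTF ran from -1.11 to 1.35, TNFSF15 from -0.20 to 1.78, PTH2R from -0.84 to 0.18, ARHGAP24 from -0.83 to 0.55 and PWWP3B from -0.57 to 0.44. Besides ART3, TESC, TNFSF15 and LYRM7 passed with block and median centring (limma adjusted p = 0.0482, 0.0381 and 0.0374). Without replicate 2 of both siRNAs the TNFSF15 difference was 1.25. Without their replicate 1, TESC, ART3 and LYRM7 differed by 0.85, 1.12 and 0.91. A lone array left in a group was assumed to vary like the other groups. Without replicate 1 or 2 of both siRNAs each siRNA had 1 array, so the counts and differences there are no test of the siRNAs.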
